A study of Homo sapiens with 6 samples.

Results

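The genes described here are the receptors EGFR, ERBB2 and ERBB3, the ligands AREG, EREG, HBEGF and TGFA, and the feedback inhibitor ERRFI1, measured as RNA in HCT116 cells, an established human colorectal cancer line. They were chosen by name, with earlier results of these data known, and found through the NCBI Gene IDs of the count files. All 8 of 8 were present among 28395 gene IDs. Cells were given 50 nM TR-107 for 24 h (3 libraries) or the vehicle, 0.1% DMSO, for 24 h (3 libraries). The compound TR-107 activates ClpP, a protease of the mitochondrial matrix, and the study asked which transcripts change when it is given. All 6 libraries came from the same line, were enriched for polyadenylated RNA, and are called biological replicates by the submitters without a statement of how the cultures were separated, so p-values speak only of how these libraries vary, which may be technical.

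Receptors of the EGFR family are tyrosine kinases that span the cell membrane and signal as pairs. AREG, EREG, HBEGF and TGFA are made as membrane-bound precursors, are released by proteases such as ADAM17, and bind EGFR, whereas the neuregulins bind ERBB3 and ERBB4. ERBB2 has no known ligand of its own and pairs with the others, and ERRFI1 (also called MIG6) binds the kinase domain of active EGFR and restrains it. In the gut epithelium, AREG and EREG are known as growth signals that colorectal tumours often produce themselves.

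After TR-107, all 4 ligands, EGFR, ERBB3 and ERRFI1 rose, and ERBB2 fell. HBEGF rose most, 5.21-fold, going from 8.29 ± 0.626 CPM to 43.1 ± 1.50 CPM (SD, n = 3). AREG rose 3.92-fold and ERRFI1 2.89-fold, while ERBB2 was 1.17-fold lower. CPM is a gene's reads divided by the library's reads in units of 1e6, after scaling libraries by the trimmed mean of M values (TMM). Of the 8 genes, 7 were called higher and 1 lower by edgeR's quasi-likelihood test (adjusted p under 0.05, Benjamini-Hochberg), in a fit where 57.8% of 13767 tested genes were called, 29.2% higher and 28.6% lower. Rises of at least 2-fold were found for 4 of the 8 (HBEGF, AREG, ERRFI1 and TGFA), against 6.55% of tested genes. The 8 genes had a median log2 fold change of 1.00, and all tested genes one of 0.01. Because the 8 genes were chosen with earlier results of these data known, these contrasts with all tested genes are descriptions, not tests. The values of the 2 groups did not overlap for any of the 8, which was also so for 62.4% of tested genes.

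**Figure D1:**
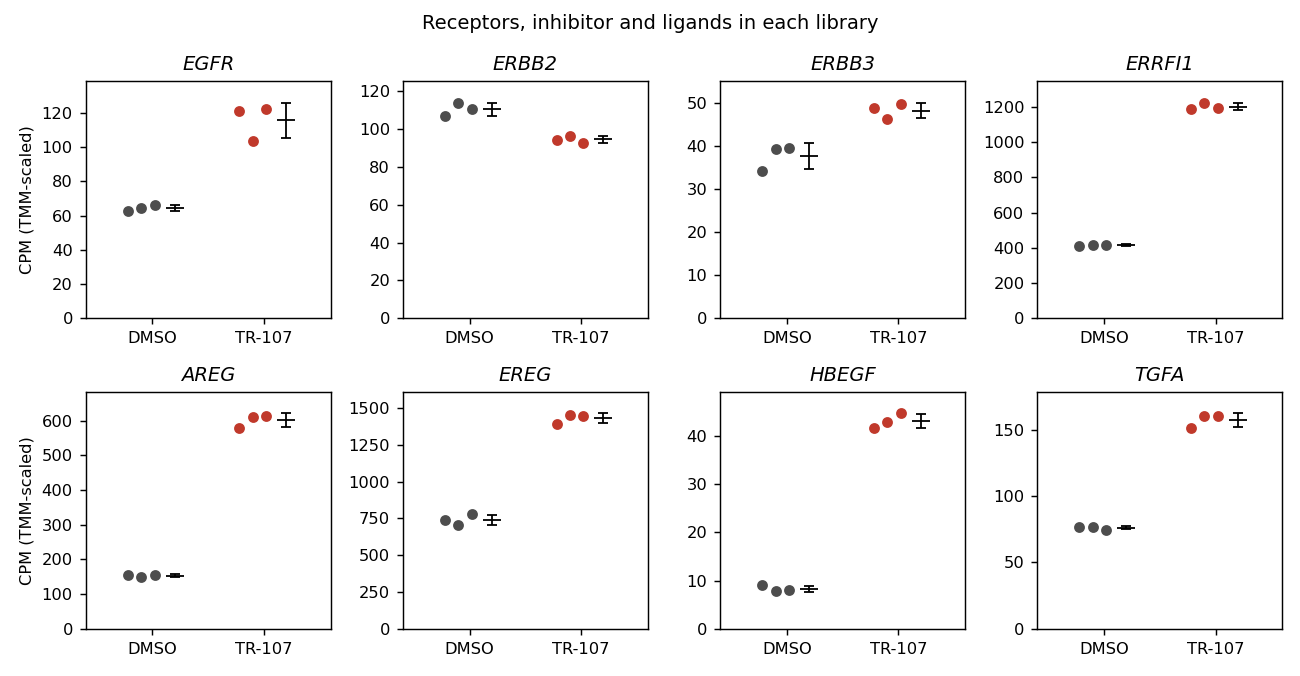
TMM-scaled CPM (vertical axis, from 0, with its own scale in each panel) of the 8 genes in each library; dots are libraries, and the bar beside them is the mean with its SD (n = 3). In 7 panels every TR-107 library lies above every DMSO library, and for ERBB2 every TR-107 library (92.7 to 96.5 CPM) lies below them (107 to 114 CPM).

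Libraries held 17264039 to 23708135 gene counts, and no pair of replicates agreed within counting noise. The epithelial identity of the line was checked on 9 markers, of which 7 (EPCAM, CDH1, KRT8, KRT18, KRT19, CLDN4 and ELF3) exceeded 1 CPM in every library, whereas CDH17 and VIL1, markers of differentiated gut epithelium, did not exceed it in any. Their summed level was 5305 to 5350 CPM in DMSO and 5897 to 6011 CPM in TR-107. CDH1 rose most of them, 1.73-fold (edgeR adjusted p = 3.87e-17), and EPCAM and KRT8 were not called. Of 10 markers of immune, endothelial and stromal cells, 2 (CD68 and COL1A1) exceeded 1 CPM, and PTPRC, CD3E, CDH5 and DCN were at 0 in all 6 libraries. The summed level of these 10 was 19.2 to 21.7 CPM in DMSO and 26.6 to 31.5 CPM in TR-107. CD68 rose 2.11-fold (edgeR adjusted p = 1.22e-06), and COL1A1 was not called (edgeR adjusted p = 0.066). The part of either list in the results below was not tested. In such bulk RNA, fewer cells of a kind and less RNA per cell cannot be told apart.

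Among the ligands, HBEGF (gene ID 1839, GRCh38 chromosome 5, 140332843 to 140346603) encodes heparin-binding EGF-like growth factor, which also binds ERBB4. It was at 8.99, 7.78 and 8.11 CPM in DMSO replicates 1, 2 and 3, and at 41.7, 42.9 and 44.6 CPM in TR-107 replicates 1, 2 and 3. Every TR-107 library lay far above every DMSO library, and the libraries within a group lay close together. The log2 fold change was 2.38 ± 0.10 (SE; 95% interval 2.17 to 2.59; edgeR adjusted p = 5.21e-23). Of all tested genes, 0.915% had a higher one. HBEGF was the ligand with the fewest reads of the 4 (168, 178 and 196 in the DMSO libraries, and 713, 783 and 958 in the TR-107 libraries).

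AREG (gene ID 374, chromosome 4, 74445136 to 74455005) encodes amphiregulin. It was at 156, 149 and 156 CPM in DMSO and at 579.6, 612 and 614 CPM in TR-107, replicates 1 to 3. No library came near the other group. The log2 fold change was 1.97 ± 0.04 (SE; 95% interval 1.88 to 2.05; edgeR adjusted p = 2.36e-34). Of all tested genes, 1.47% had a higher one.

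EREG (gene ID 2069, chromosome 4, 74365145 to 74388749) encodes epiregulin and had the most reads of the 8 genes. It was at 738, 708.5 and 778 CPM in DMSO and at 1393, 1453 and 1448 CPM in TR-107. Its rise was 1.93-fold, smaller than that of AREG in the same libraries, with a log2 fold change of 0.95 ± 0.04 (SE; 95% interval 0.87 to 1.02; edgeR adjusted p = 2.25e-24). TGFA (gene ID 7039, chromosome 2, 70447284 to 70553826), transforming growth factor alpha, was at 76.6, 77.0 and 74.7 CPM in DMSO and at 151, 160.3 and 159.9 CPM in TR-107. Its values were close together within each group, and it rose 2.07-fold (log2 fold change 1.05 ± 0.05, SE; edgeR adjusted p = 2.54e-21).

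AREG and EREG are neighbours on chromosome 4, so their unequal rise was also measured as a ratio of raw counts within each library, which no scaling can move. The ratio of AREG to EREG reads was 0.212, 0.210 and 0.201 in DMSO and 0.416, 0.421 and 0.424 in TR-107. Every TR-107 library had more AREG per EREG read than every DMSO library, and the ratio rose 2.03-fold. The exact two-sided permutation test gave p = 0.1, the smallest that 3 libraries against 3 allow, so 0.05 cannot be reached.

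**Figure D2:**
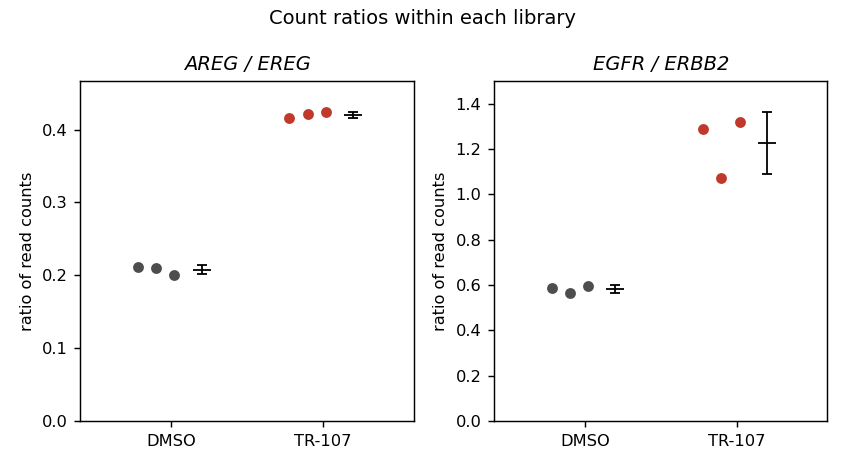
Ratio of read counts within each library (vertical axis, from 0) for AREG over EREG, left, and EGFR over ERBB2, right; dots are libraries, and bars give the mean and SD (n = 3). AREG over EREG moved from 0.207 ± 0.00571 to 0.420 ± 0.00404, and EGFR over ERBB2 from 0.582 ± 0.0174 to 1.23 ± 0.132, each with no overlap. Both ratios are of reads and take no account of gene length.

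The stretch that holds AREG and EREG carries 4 ligand genes of the family in the order EPGN, EREG, AREG and BTC, with MTHFD2L and PARM1 as the nearest protein-coding genes at either side. All 4 ligand genes were called higher. BTC, which encodes betacellulin (chromosome 4, 74744759 to 74794523), rose 3.08-fold, from 3.42, 3.58 and 4.14 CPM in DMSO to 10.8, 12.7 and 11.1 CPM in TR-107 (log2 fold change 1.62 ± 0.18, SE; edgeR adjusted p = 2.92e-10). EPGN, which encodes epigen, had only 7, 12 and 14 reads in the DMSO libraries and 21, 15 and 39 in the TR-107 libraries (log2 fold change 1.37 ± 0.55, SE; edgeR adjusted p = 0.0292). Its groups nearly met in reads, and its call was lost without DMSO replicate 1, 2 or 3 and without TR-107 replicate 1 or 3 (edgeR adjusted p of 0.127, 0.0708, 0.0570, 0.0512 and 0.181), within a range of 0.0248 to 1 over its alternatives. The spans of EPGN, EREG and MTHFD2L all overlap LOC105377276, and how the counting shared out reads there is not given. The flanking genes were looked up after the ligands' values were seen. MTHFD2L, a mitochondrial folate enzyme, was not called (8.62 ± 0.723 and 8.38 ± 1.02 CPM, SD, n = 3; edgeR adjusted p = 0.84), and PARM1, a mucin-like membrane protein, fell from 26.8 ± 1.44 to 17.8 ± 3.36 CPM (SD, n = 3; edgeR adjusted p = 2e-05).

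**Figure D3:**
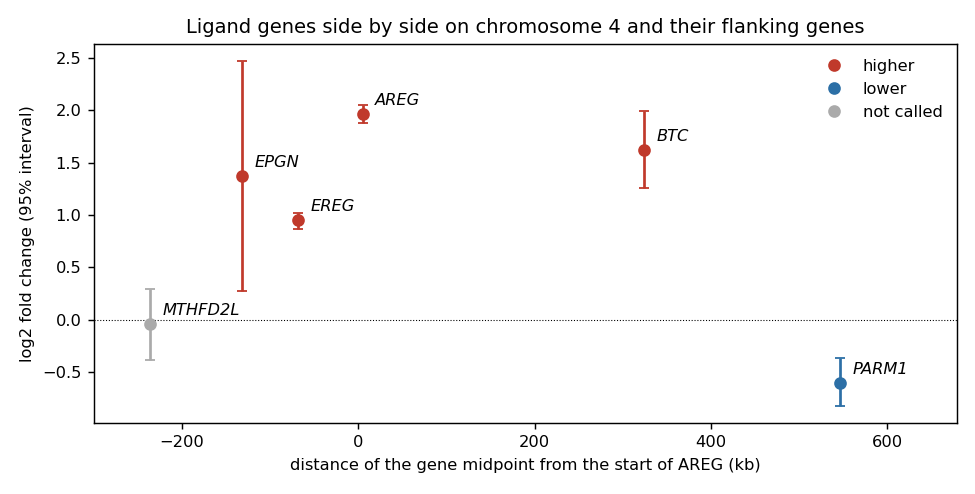
Log2 fold change with its 95% interval (vertical axis) of 4 ligand genes and the 2 flanking protein-coding genes on chromosome 4, against the distance of each gene's midpoint from the start of AREG in kilobases (horizontal axis); colours give the edgeR call. The 4 ligand genes lie at 0.95 to 1.97, MTHFD2L at -0.04 and PARM1 at -0.60.

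The 250 bases before the annotated start are shown for the neighbours AREG and EREG, which rose by different amounts, and for HBEGF, which rose most. The sequences are RefSeq's, build GRCh38.p14, read 5′ to 3′ in the direction of the gene, and capitals mark a match to 1 of 3 motifs.
AREG, chr4:74444886-74445135, plus strand: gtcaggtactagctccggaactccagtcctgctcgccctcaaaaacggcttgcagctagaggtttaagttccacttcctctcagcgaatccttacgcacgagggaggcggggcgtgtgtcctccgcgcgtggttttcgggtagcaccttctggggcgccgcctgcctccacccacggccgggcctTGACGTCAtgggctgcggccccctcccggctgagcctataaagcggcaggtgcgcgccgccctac
EREG, chr4:74364895-74365144, plus strand: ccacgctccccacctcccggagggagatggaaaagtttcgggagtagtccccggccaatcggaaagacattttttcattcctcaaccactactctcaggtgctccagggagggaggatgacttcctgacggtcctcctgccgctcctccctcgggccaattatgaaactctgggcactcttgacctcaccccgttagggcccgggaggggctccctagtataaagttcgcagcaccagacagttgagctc
HBEGF, chr5:140346604-140346853, minus strand: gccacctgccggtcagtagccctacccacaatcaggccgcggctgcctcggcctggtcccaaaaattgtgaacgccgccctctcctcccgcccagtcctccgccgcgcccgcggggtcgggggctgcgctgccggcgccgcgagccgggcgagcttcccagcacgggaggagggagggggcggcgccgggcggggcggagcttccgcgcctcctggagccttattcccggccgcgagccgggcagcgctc
The motifs searched on both strands, in windows that also took in the 50 bases after the start, were the AP-1 site TGANTCA, the cyclic AMP response element TGACGTCA and the core TGATGNAA of the composite element bound by ATF4 and CHOP. No letters of 1 motif can serve as a whole match to another. AREG held the match TGACGTCA, beginning 65 bases before its start, and EREG and HBEGF held none of the 3. Windows were found for 7 of the 8 genes (not ERBB3). ERBB2 held 1 AP-1 match, and 1 of 2 EGFR windows, at an alternative start, held 2. The windows of TGFA and ERRFI1 held none. Of 35116 windows of this length, 7.71% held TGANTCA, 1.85% TGACGTCA and 3.62% TGATGNAA. Of the 15689 windows that belong to tested genes, the shares were 5.29%, 2.79% and 1.97%. A match describes letters only, and the data do not measure binding.

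Receptor transcripts did not move in 1 direction, and their log2 fold changes ran from -0.22 to 0.85, where those of the 4 ligands ran from 0.95 to 2.38. EGFR (gene ID 1956, chromosome 7, 55019017 to 55211628) was at 62.4, 64.2 and 66.0 CPM in DMSO and at 121, 104 and 122 CPM in TR-107. TR-107 replicate 2 was lower than the other two libraries of its group but above all DMSO libraries. EGFR rose 1.80-fold (log2 fold change 0.85 ± 0.06, SE; 95% interval 0.73 to 0.97; edgeR adjusted p = 7.43e-16). ERBB3 (gene ID 2065, chromosome 12, 56080108 to 56103505), whose kinase domain is nearly inactive and which signals through its partner, was at 34.1, 39.2 and 39.5 CPM in DMSO and at 48.8, 46.2 and 49.7 CPM in TR-107. It rose 1.28-fold (log2 fold change 0.36 ± 0.08, SE; edgeR adjusted p = 0.000143), with a gap between the groups that was wider than the spread of either.

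ERBB2 (gene ID 2064, chromosome 17, 39688094 to 39728658) was the only 1 of the 8 genes to fall. It was at 107, 114 and 110.5 CPM in DMSO and at 94.3, 96.5 and 92.7 CPM in TR-107. The fall was small beside the other changes, with a log2 fold change of -0.22 ± 0.05 (SE; 95% interval -0.33 to -0.12; edgeR adjusted p = 0.000329). MIEN1, whose span overlaps that of ERBB2, also fell, from 36.1 ± 1.90 to 29.7 ± 1.62 CPM (SD, n = 3; edgeR adjusted p = 0.0049), and how the counting shared out reads between them is not given. In DMSO there were 0.582 ± 0.0174 EGFR reads for each ERBB2 read, and in TR-107 1.23 ± 0.132 (SD, n = 3), so that EGFR went from fewer reads than ERBB2 to more. This ratio takes no account of gene length. Per kilobase of exon, ERBB2 stayed above EGFR in TR-107 (16.7 ± 0.339 and 10.2 ± 0.919 CPM per kilobase, SD, n = 3). ERBB4, the remaining receptor, had 0 counts in 5 libraries and 5 in TR-107 replicate 3, and was too low to test.

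ERRFI1 (gene ID 54206, chromosome 1, 8011727 to 8026309), the inhibitor of EGFR that active EGFR signalling is known to induce, was at 412, 418 and 416 CPM in DMSO and at 1186, 1224 and 1194 CPM in TR-107. It had the narrowest relative spread of the 8 genes in DMSO (415.5 ± 3.26 CPM, SD, n = 3). The log2 fold change was 1.53 ± 0.04 (SE; 95% interval 1.46 to 1.61; edgeR adjusted p = 2.45e-32). Of all tested genes, 2.77% had a higher one. ERRFI1 reads per EGFR read went from 6.47 ± 0.153 to 10.5 ± 1.17 (SD, n = 3).

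Levels of different genes were compared per kilobase of exon, with lengths from GENCODE release 29, since the annotation used for counting is not given. On this scale EREG was highest in DMSO (161 ± 7.58 CPM per kilobase), followed by AREG (124 ± 3.52), ERRFI1 (99.6 ± 0.783), ERBB2 (19.5 ± 0.636), TGFA (15.9 ± 0.256), EGFR (5.67 ± 0.159), ERBB3 (5.07 ± 0.409) and HBEGF (3.48 ± 0.262; SD, n = 3 for each level). Neighbours in this order were apart in every library. In TR-107 the order of levels was AREG (485 ± 15.6 CPM per kilobase), EREG (309.9 ± 7.22), ERRFI1 (288 ± 4.78), TGFA (32.8 ± 1.06), HBEGF (18.1 ± 0.629), ERBB2 (16.7 ± 0.339), EGFR (10.2 ± 0.919) and ERBB3 (6.49 ± 0.247), again with no overlap between neighbours. On this scale AREG passed EREG, and HBEGF went from the lowest level to above all 3 receptors. Each length joins the exons of all of a gene's basic protein-coding transcripts, so this order and the sums below depend on that choice. In CPM without length, EREG stayed above AREG in TR-107 (1431 and 601.9 on average). HBEGF (43.07 CPM) likewise stayed below ERBB3 (48.25), ERBB2 (94.52) and EGFR (115.7).

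Summed over the 4 ligands, the level per kilobase was 303.9 ± 10.6 in DMSO and 846 ± 24.4 in TR-107, and summed over the 3 receptors it was 30.2 ± 1.12 and 33.4 ± 0.851 (SD, n = 3). Within the ligand sum, AREG went from 40.8 ± 0.526% to 57.4 ± 0.201% and EREG from 52.8 ± 0.791% to 36.6 ± 0.225% (SD, n = 3). Within the receptor sum, EGFR went from 18.8 ± 0.457% to 30.5 ± 2.01% and ERBB2 from 64.5 ± 0.762% to 50.0 ± 2.26% (SD, n = 3). These sums and shares are descriptions and were given no test.

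The remaining ligand genes of the family did not all move the same way. BTC and EPGN, ligands of EGFR, were higher, as described. The 3 tested neuregulins, which signal through ERBB3 or ERBB4, fell at least 2-fold, as did 3.71% of tested genes. NRG1 had 133, 120 and 140 reads in the DMSO libraries and 28, 15 and 26 in the TR-107 libraries (7.12, 5.24 and 5.79 CPM against 1.64, 0.822 and 1.21 CPM), and was 4.94-fold lower (log2 fold change -2.30 ± 0.29, SE; edgeR adjusted p = 5.16e-09). NRG2 had 26, 60 and 40 reads in the DMSO libraries and 3, 10 and 2 in the TR-107 libraries (log2 fold change -2.80 ± 0.59, SE; edgeR adjusted p = 7.88e-05). Without TR-107 replicate 2 its log2 fold change was -3.80. NRG4 had 31, 38 and 28 reads in the DMSO libraries and 16, 1 and 2 in the TR-107 libraries (log2 fold change -2.09 ± 0.64, SE; edgeR adjusted p = 0.0054). In NRG4, TR-107 replicate 1 stood apart from the other two, and without it the log2 fold change was -4.20, while limma-voom on all 6 libraries gave -2.88. The span of NRG4 overlaps FBXO22, which was not called (42.0 ± 1.78 and 40.2 ± 0.228 CPM, SD, n = 3; edgeR adjusted p = 0.493). It also overlaps TMEM266, which was too low to test. TMEM266 had 10, 2 and 2 counts in the DMSO libraries and 8, 1 and 0 in the TR-107 libraries. EGF had 0 to 10 counts per library and was not tested, and NRG3 had 0 in all 6, which allows up to 0.124 to 0.175 CPM per library (3 counts, counting error only).

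**Figure D4:**
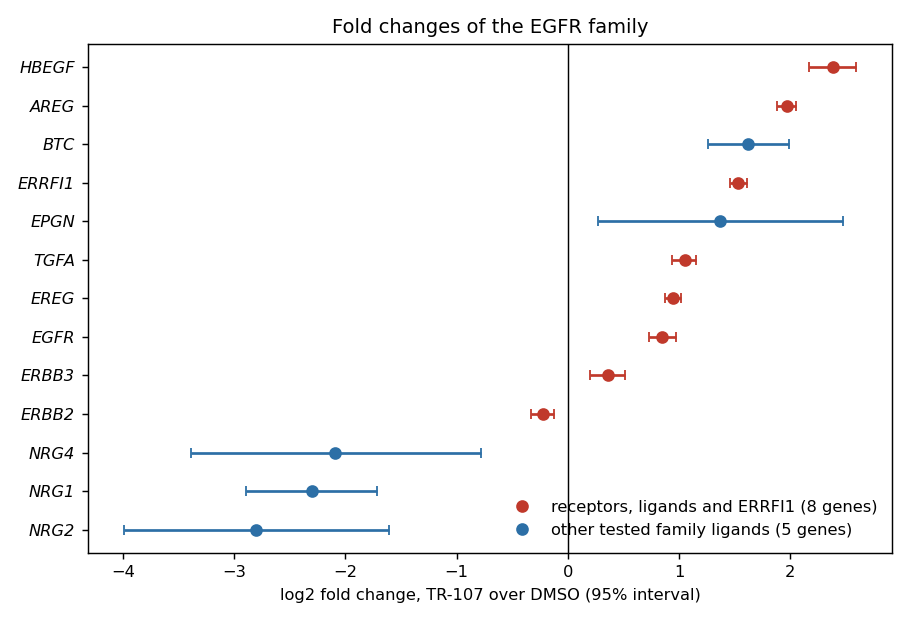
Log2 fold change of TR-107 over DMSO (horizontal axis) with its 95% interval for the 8 genes (red) and the 5 other family ligands that could be tested (blue), ordered by size. Genes of the EGFR ligands lie at 0.95 to 2.38, EGFR, ERBB3 and ERBB2 at 0.85, 0.36 and -0.22, and the neuregulin genes at -2.80 to -2.09.

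Genes of ligand shedding, namely proteases, cofactors and metalloprotease inhibitors, moved in both directions. Of 12 tested, 5 were called higher and 5 lower, where 29.2% of all tested genes were called higher and 28.6% lower. The median log2 fold change of the 12 was -0.03, against 0.01 for all tested genes. ADAM17, the main sheddase of AREG, EREG, HBEGF and TGFA, was at 46.9, 52.3 and 55.2 CPM in DMSO and at 119, 115.5 and 121 CPM in TR-107, and rose 2.30-fold (log2 fold change 1.20 ± 0.06, SE; edgeR adjusted p = 8.5e-21). Its span overlaps that of IAH1. RHBDF1 and RHBDF2, which encode the iRhom partners of ADAM17, rose by 0.75 and 0.27 on the log2 scale, and TIMP1, a metalloprotease inhibitor, by 0.69. ADAM19 and ADAM15 fell (log2 fold changes of -0.65 and -0.58), as did TIMP2 (-0.15) and the iRhom-binding protein FRMD8 (-0.23), whose call was lost without DMSO replicate 2 (edgeR adjusted p = 0.0994) or TR-107 replicate 2 (0.0511). ADAM10, another sheddase, was not called (138 ± 6.36 and 145 ± 10.8 CPM, SD, n = 3; edgeR adjusted p = 0.214); it is named outside the rule for named genes.

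Of 20 tested adaptors and members of the RAS and ERK relay, 8 were called higher and 4 lower, with a median log2 fold change of 0.10. The number called was near the 57.8% of all tested genes, so it says nothing particular about the relay. SOS2, an exchange factor that loads RAS with GTP, was at 13.0, 13.4 and 13.7 CPM in DMSO and at 48.2, 44.6 and 48.8 CPM in TR-107, which was 3.54-fold higher. The receptor adaptor SHC1 (0.56), the RAS GTPase activator RASA1 (0.75) and the kinase BRAF (0.62) also rose on the log2 scale. The adaptor GRB2 (-0.32) and the kinase MAPK3 (-0.28) were among those that fell. Of 12 tested genes of the PI3K and AKT branch, 2 were called higher and 4 lower, with a median of -0.04, which was again no more than the 57.8% called over all tested genes. The catalytic subunit PIK3CA (0.54) and the lipid phosphatase INPP4B (0.55) rose, and the AKT phosphatases PHLPP2 (-0.72) and PHLPP1 (-0.55), AKT1 (-0.27) and PIK3R2 (-0.15) fell.

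Of 19 genes of receptor uptake and turnover, 10 were called higher and 4 lower, beside 29.2% and 28.6% of all tested genes, with a median log2 fold change of 0.22. SH3KBP1, which links the ubiquitin ligase CBL to endocytosis of EGFR, was at 99.9, 95.7 and 102 CPM in DMSO and at 320, 318 and 319 CPM in TR-107, and rose 3.22-fold (log2 fold change 1.69 ± 0.04, SE; edgeR adjusted p = 1.13e-30). EPS15, an endocytic adaptor, rose 1.88-fold, USP8, a deubiquitinase of endosomes, 1.41-fold, and RNF41, a ligase that acts on ERBB3, 1.51-fold. The membrane protein LRIG3 (-0.60), the tyrosine phosphatase PTPN1 (-0.18), the endocytic adaptor EPN1 (-0.18) and SOCS5 (-0.21), which promotes EGFR degradation, fell on the log2 scale. The call of SOCS5 (edgeR adjusted p = 0.0495) was lost without DMSO replicate 1 (0.141) or 2 (0.0818) and without TR-107 replicate 2 (0.0777) or 3 (0.245).

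Genes that ERK signalling is known to induce, many of them inhibitors that act back on it, gave 10 called higher and 2 lower of 18 tested, with 7 at least 2-fold higher and a median log2 fold change of 0.53. Over all tested genes 29.2% were called higher, 28.6% lower and 6.55% at least 2-fold higher. Of the 7, DUSP6, IER3 and DUSP4 lay near 2-fold, with log2 fold changes of 1.00, 1.01 and 1.04. The glmTreat test of edgeR, which tests against 2-fold itself, called 4 genes of the list higher. This list was chosen with earlier results of these data known, so the contrast is a description, not a test. DUSP5, a phosphatase of nuclear ERK, was at 152, 163 and 142 CPM in DMSO and at 723, 754 and 741 CPM in TR-107, and rose 4.85-fold (log2 fold change 2.28 ± 0.04, SE; edgeR adjusted p = 7.82e-36). EPHA2, a receptor tyrosine kinase, rose 2.44-fold, ETV5, an ETS transcription factor, 2.71-fold, and SPRY4, a Sprouty inhibitor, 2.30-fold. The other 6 that rose, named outside the rule, were DUSP4, DUSP6, FOSL1, PHLDA1, SPRED2 and IER3, of which IER3 (1.07 ± 0.148 and 2.17 ± 0.143 CPM, SD, n = 3; edgeR adjusted p = 0.0343) lost its call without DMSO replicate 1 (0.0879) or 2 (0.0985) and without TR-107 replicate 1 (0.0782), 2 (0.0563) or 3 (0.0544). CCND1, cyclin D1, fell from 1010, 1012 and 1003 CPM in DMSO to 744, 774 and 778 CPM in TR-107 (log2 fold change -0.40 ± 0.04, SE; edgeR adjusted p = 9.89e-13). DUSP7, another ERK phosphatase, fell by 0.64 on the log2 scale. With library size alone as scaling, 4 genes of this list were called lower, EPHA4 and ETV4 in addition. In the TMM-scaled fit the 6 genes not called were SPRY1, SPRY2, SPRED1, ETV1, ETV4 and EPHA4.

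**Figure D5:**
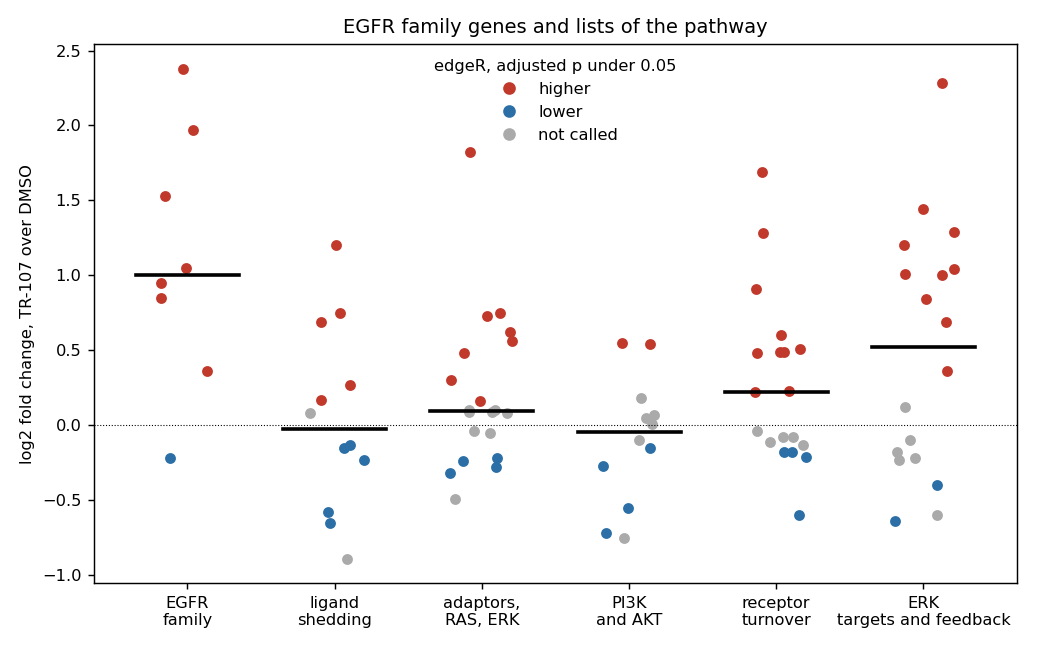
Log2 fold change of TR-107 over DMSO (vertical axis) of each tested gene, for the 8 receptors, ligands and ERRFI1 and for 5 lists of the pathway; red and blue dots were called higher and lower by edgeR, grey dots were not called, and black lines are medians (sideways scatter has no meaning). Medians are 1.00 for the 8 genes, -0.03 for ligand shedding, 0.10 for adaptors, RAS and ERK, -0.04 for PI3K and AKT, 0.22 for receptor turnover and 0.53 for ERK targets and feedback.

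The genes whose profile was nearest to HBEGF over the 6 libraries, by the root mean square difference of log2 CPM centred on the DMSO mean, were LAMB3 (0.0550), THSD4 (0.0562) and MAP1LC3B (0.0860), among 10546 genes averaging 5 CPM or more. LAMB3, a laminin chain, was at 53.4 CPM in DMSO and 279 CPM in TR-107 on average. Only 5 genes lay within 0.1 of HBEGF on this measure. For ERBB2, which fell little, the nearest were COX15 (0.0179), TMEM132A (0.0184) and POLR1A (0.0197). However, 1207 genes lay within 0.1 of ERBB2, so this likeness is shared by many genes. With 2 groups of 3 libraries, the measure mostly reads the size of the group difference.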

How the data were processed

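RNA was measured in 6 libraries of HCT116 cells, 3 per group, and groups came from the treatment labels. Each deposited file held raw read counts by NCBI Gene ID, which the authors made with FastQC, Trimmomatic, HISAT2 and featureCounts on hg38, per the submitters' processing notes. The sources used here do not give versions, annotation, strand or multi-mapping settings, so reads of overlapping genes (EGFR, ERBB2, EREG and TGFA overlap others) cannot be assigned with certainty. Of 28395 IDs, 27745 matched a symbol in RefSeq's GRCh38.p14 table. Totals were 17264039 to 23708135 counts per library.

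All genes were fitted together with edgeR 4.0.16 (R 4.3.3): TMM scaling, filterByExpr, a robust quasi-likelihood fit on group alone, and Benjamini-Hochberg adjustment at 0.05 over 13767 genes. Standard errors come from the F statistic, and log2 CPM used a prior count of 2. Alternatives were upper-quartile or relative log expression factors, no scaling beyond library size, no filter, a minimum of 1 CPM in 3 libraries, a replicate block, DESeq2 1.42.0, limma-voom (limma 3.58.1), glmTreat against 2-fold, and leaving out each library. The fits were tested on simulated counts with known changes in a small share of genes, all of them well counted. That trial does not speak for genes with few reads or for scaling when many genes change. The 8 genes and the pathway lists were chosen with earlier results of these data known. From each list up to 4 called genes per direction with the smallest p are named, and for the highest and lowest fold change of the 8 genes the 3 nearest profiles. Some genes that the rule names are not reported here.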

Additional observations from a re-analysis of the deposited data

How the results depend on the processing

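The 7 higher calls and the 1 lower call among the 8 genes were made under every alternative except glmTreat, which tests against 2-fold itself and called 3 higher (HBEGF, AREG and ERRFI1) and 0 lower among them, and 385 genes higher and 160 lower over all (0 of the 8 were lower at an unadjusted p under 0.05 in glmTreat; edgeR without it, DESeq2 and limma-voom each called 1). No direction reversed for any of the 57 genes refitted under each alternative. With library size alone as scaling, 3484 genes were higher and 4537 lower, and the median log2 fold change of all tested genes was -0.05. The near-equal shares called higher and lower over all tested genes thus depend on the scaling. Leaving out 1 library gave 3596 to 3852 genes higher and 3727 to 3825 lower, 7 higher and 1 lower among the 8 genes each time, and a log2 change of the AREG to EREG ratio between 1.00 and 1.03. With the replicate block, 3976 genes were higher and 3942 lower, against 4015 and 3941 without it, and the block changed no call among those 57 genes. Same-numbered libraries of the 2 groups had correlations of -0.031, -0.018 and 0.049 in their deviations from the group means. Not every library correlated best with its own number, so no pairing by number was seen. Such small groups cannot decide whether the cultures were set up in pairs. Apart from glmTreat, calls among these genes were lost only for EPGN, FRMD8, IER3 and SOCS5, SOCS5 also with upper-quartile factors, without the filter and with DESeq2, and EPGN without the filter. EPGN had too few counts for the filter at 1 CPM. Depth limits NRG2, NRG4, EPGN, EGF, ERBB4 and IER3, which had under 100 counts in each library. It also limits the adaptor GAB2, counted as higher in the RAS and ERK list but not among those 57 genes. GAB2 had 24 to 78 counts per library (edgeR adjusted p = 0.0497), and its call was lost with relative log expression factors, among other alternatives.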
